A study of Mus musculus with 18 samples.

Results

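The transcriptional response to 16aOHE (16-alpha-hydroxyestrone) was examined in mouse cells that carried small interfering RNA (siRNA) against CYP1B1. It was taken as the difference between 3 libraries of siCYP1B1 cells given 1 uM 16aOHE and 3 libraries of siCYP1B1 cells given vehicle, 6 of the 18 libraries in the series. Of 15288 genes in the table, the 11786 with a mean of at least 1 CPM (the authors' counts scaled to a common total over the listed genes) over these 6 libraries were tested, and 3502 fell below. All cells were labelled as pulmonary microvascular endothelial cells, transfected by lipid with scrambled siRNA or siCYP1B1, and, 24 hours later, given vehicle, 1 uM E2 (estradiol) or 1 uM 16aOHE for 24 hours in 5% serum. By their labels, both groups of the main comparison thus carried the same siRNA and differed in the estrogen alone. Groups with the same vehicle, E2 and 16aOHE arms on scrambled siRNA, and E2 on siCYP1B1, were used to place this response. Their libraries also entered the shared estimate of spread behind the p-values. No strain, sex or age of the source animals was given in the labels, an untransfected group was not analysed here, and the labels do not say whether libraries of 1 group are separate cultures. The p-values therefore measure only the spread between these libraries, which may be technical.

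Estradiol is oxidised in tissues along several routes, and 16aOHE is the product of hydroxylation at the alpha position of the D ring. It differs from estradiol in that ring, where a hydroxyl is replaced by a ketone and the neighbouring carbon carries an extra hydroxyl. It binds the estrogen receptors, ligand-activated transcription factors that act on DNA directly or through other factors. CYP1B1 is a cytochrome P450 that hydroxylates estradiol, is induced through the aryl hydrocarbon receptor, and has been studied together with 16aOHE in pulmonary arterial hypertension.

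Cyp1b1 transcript (chr17:79706953-79715041, minus strand, mm10) was listed at 89.1, 91.4 and 96.1 CPM in the scrambled vehicle libraries and at 80.8, 82.2 and 81.3 CPM in the siCYP1B1 vehicle libraries. Every siCYP1B1 library lay below every scrambled one, by 11.7% of the mean (exact permutation p = 0.1, two-sided, the smallest that 3 against 3 libraries can give). In the 16aOHE arm the siCYP1B1 mean was 15.2% below the scrambled mean (exact permutation p = 0.1). The libraries labelled siCYP1B1 thus held most of the Cyp1b1 transcript of the scrambled ones at the time of harvest, and protein was not measured.

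The labelled cell type was checked against markers. Of 20 endothelial markers in the table, 8 reached 1 CPM and 4 reached 10 CPM over the 6 libraries. Among these 4, Cd34 averaged 90.1 CPM with vehicle and 76.5 CPM with 16aOHE. The defining markers Pecam1 and Vwf averaged 0.061 and 0.022 CPM. Mesothelial and epithelial markers reached 1 CPM for 15 of 19 and 10 CPM for 9, with mesothelin (Msln) at 1403 CPM in vehicle libraries. Of 15 smooth muscle and pericyte markers 9 reached 1 CPM and 6 reached 10 CPM. For fibroblast markers these counts were 7 and 6 of 13, and for leukocyte markers 3 and 2 of 6. The endothelial label was therefore not borne out by Pecam1 and Vwf, although other members of its list, such as Cd34, were present. The cells are called here by their siRNA and estrogen only. In bulk libraries such as these, fewer cells of a type and less RNA per cell cannot be told apart. The series title names smooth muscle cells, whose marker Myh11 averaged 0.083 CPM. Another marker on that list, Acta2, averaged 21.7 CPM with vehicle and 16.7 CPM with 16aOHE.

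At the depth read from the steps between low values, 1 CPM stood for 14.1 reads in the shallowest of the 6 libraries (16aOHE library 1) and 25.2 in the deepest (vehicle library 1). Log-scale correlations were 0.9945 to 0.9975 within groups and 0.9939 to 0.9963 between them, and no columns were identical. The first principal component held 36.3% of the variance and placed the vehicle libraries at -9.28, -5.42 and -6.65 and the 16aOHE libraries at 1.70, 13.3 and 6.35. On the second, which held 27.5%, 16aOHE library 1 stood apart at 14.5.

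With 16aOHE, 638 of the 11786 genes tested changed (5.41%), 300 higher (2.55%) and 338 lower (2.87%), at an adjusted p under 0.05 (limma with Benjamini-Hochberg adjustment over all tested genes). Changes were small. The median size among these genes was 0.24 on the log2(CPM + 1) scale, and a change of at least 1.5-fold in mean CPM was reached by 30 risers and 47 fallers, of at least 2-fold by 4 and 7. In 634 of the 638 the 3 vehicle and 3 16aOHE values did not overlap, as was the case for 22.5% of all tested genes. The count depended on 16aOHE library 2, without which 306 genes changed (296 of them among the 638). It was 316 without vehicle library 3, 382 without vehicle library 2, and 364 when the spread was estimated from these 6 libraries alone.

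Among the 12 genes with the largest rises, A4galt, which makes the globoside Gb3 (chr15:83226722-83251774, minus strand), was listed at 11.1, 10.4 and 11 CPM with vehicle and at 22.5, 21.1 and 23.9 CPM with 16aOHE. The groups did not overlap, which was required of the 12 genes in each direction. The rise was 2.08-fold in mean CPM and 0.99 ± 0.08 on the log2 scale (SE, n = 3 per group, adjusted p = 4.9e-08 by limma). Lpl, lipoprotein lipase, which releases fatty acids from circulating triglyceride (chr8:68880555-68906932, plus strand), was listed at 427, 445 and 451 CPM with vehicle and at 713, 696 and 733 CPM with 16aOHE. Its rise of 0.69 ± 0.04 had the lowest adjusted p of the 24 genes with the largest changes (1.7e-10, fold 1.62). Pcdh10, a protocadherin of cell adhesion, stood at 25.5, 23.9 and 24.7 CPM against 42.3, 46.8 and 45.2 CPM (0.83 ± 0.06, adjusted p = 3.2e-08).

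Tacc1, a coiled-coil protein that also binds nuclear receptors, was listed at 104, 98.1 and 101 CPM with vehicle and 185, 170 and 164 CPM with 16aOHE (0.77 ± 0.05, adjusted p = 9.3e-09). Dhrs3, a reductase that turns retinal back to retinol, was listed at 45.2, 41.5 and 43.2 against 79.8, 64.1 and 77.6 CPM (0.75 ± 0.06, adjusted p = 1.7e-07). Il4ra, the shared receptor chain for interleukin-4 and interleukin-13, was listed at 11.9, 13.6 and 12.8 against 23.5, 20.4 and 22.8 CPM (0.75 ± 0.07, adjusted p = 1.1e-06). All 3 genes kept every 16aOHE library above every vehicle library, as the selection of the largest rises required.

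The other 6 of the 12 were less abundant or more spread. Lgr6, a receptor for R-spondins, stood at 1.31 to 1.78 CPM with vehicle and 3.27 to 4.90 CPM with 16aOHE (log2 difference 0.96). Myh14, a non-muscle myosin heavy chain, was listed at 0.952 to 1.24 against 2.39 to 3.70 CPM (0.88), and Rasd1, a Ras-like protein, at 1.28 to 2.38 against 3.63 to 6.19 CPM (0.93). For Lrp2, the endocytic receptor megalin, 16aOHE library 2 gave 47.3 CPM against 33.1 and 31.2 CPM in the other two, with vehicle at 19.7 to 23.2 CPM (0.77, adjusted p = 0.0012). Tmem86a, a lysoplasmalogenase-like membrane protein, rose by 0.70 and Mmp3, the matrix metalloproteinase stromelysin, by 0.69.

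Scara5, a scavenger receptor that takes up ferritin (chr14:65666403-65764826, plus strand), had the largest fall of the genes the naming rule admits. It was listed at 3.92, 4.39 and 5.03 CPM with vehicle and 1.28, 1.41 and 1.43 CPM with 16aOHE, without overlap as the rule required. The log2 difference was -1.19 ± 0.15 (adjusted p = 3.6e-05 by limma) and the ratio of mean CPM 0.309. Plxnb3, a plexin receptor for semaphorins, went from 5.75, 5.04 and 6.45 to 2.49, 2.69 and 2.71 CPM (-0.89 ± 0.14, adjusted p = 0.00054). Sncg, gamma-synuclein, went from 11, 10.3 and 12.1 to 5.47, 5.94 and 5.97 CPM (-0.83 ± 0.12, adjusted p = 0.00018). In each of these the 3 libraries of a group lay close together.

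Igfbp5, which binds insulin-like growth factors, fell by 0.74 and the matrix glycoprotein tenascin C (Tnc) by 0.73 on the log2 scale. Both stayed under 5 CPM, where the added 1 CPM shrinks the difference, and their ratios of mean CPM were 0.505 and 0.432. Cma1, a mast cell chymase, was listed at 32.2, 33.6 and 37.3 against 21.7, 19.5 and 21.9 CPM (-0.68 ± 0.10, adjusted p = 0.00023). Camsap3, which caps microtubule minus ends, fell by 0.79 and Fam84a by 0.98. Mmrn2, an endothelial matrix protein, is described with its list.

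The other fallers described among the 12 were Dynlt1b, a dynein light chain, and Atp5g2, a subunit of the mitochondrial ATP synthase. Both genes have near-identical copies or pseudogenes among which reads can be split, so that their values are uncertain. Dynlt1b was listed at 13.7 CPM in 16aOHE library 1 and at 7.30 and 7.07 CPM in the other two, against 20.1 to 21 CPM with vehicle (-1.11 ± 0.22, adjusted p = 0.0034). The call of Atp5g2 was lost without vehicle library 1 (adjusted p 0.094) or without 16aOHE library 2 (0.084). The plot of the largest rises and falls shows the values by library. Of the 24 genes, 22 kept their call under each of the 16 alternatives in which they were tested. Those below a mean of 5 CPM had no result under the filter at that level.

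**Figure D1:**
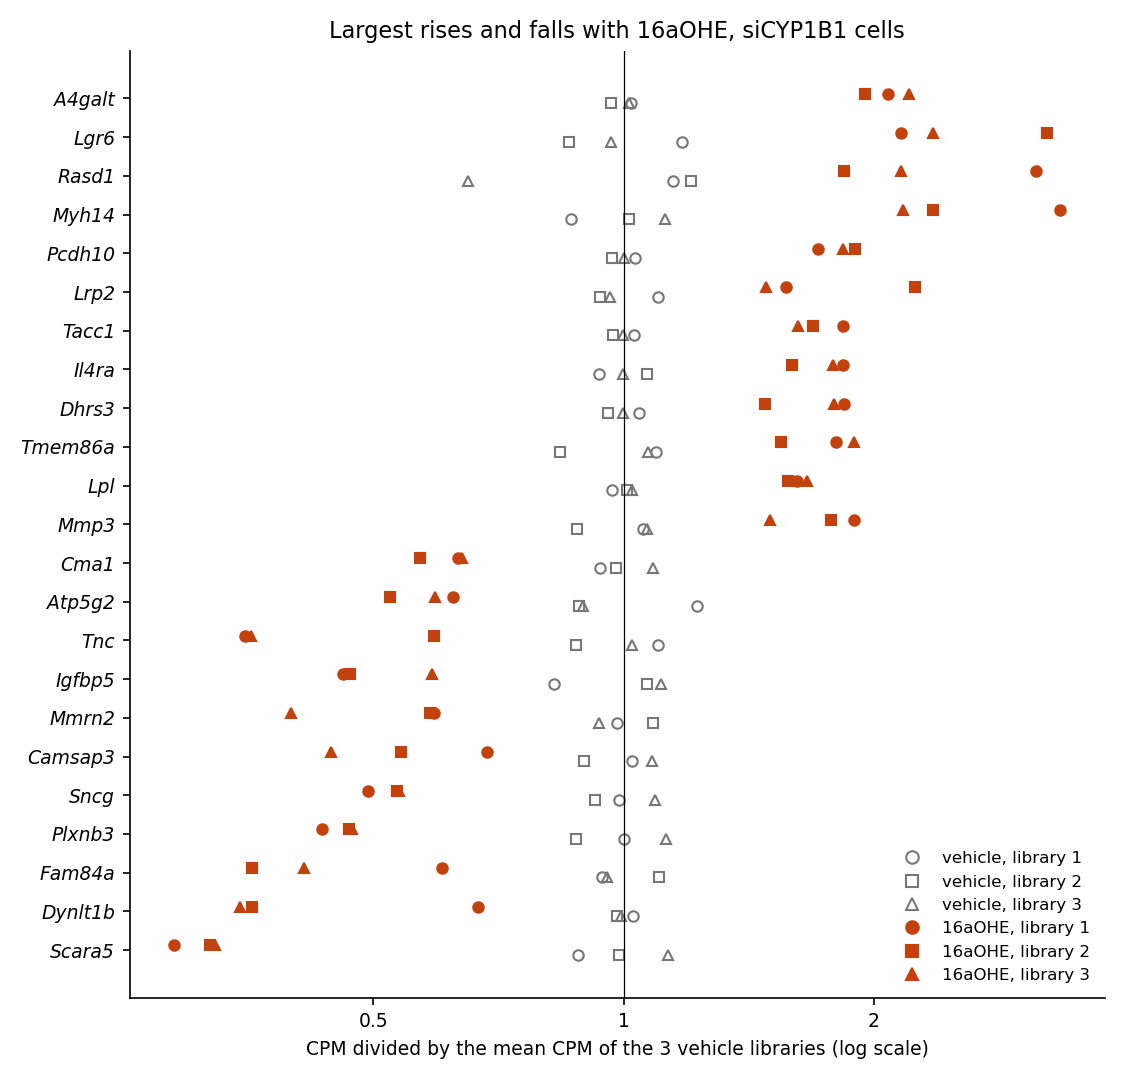
CPM of the 12 genes with the largest rises and 11 of the 12 with the largest falls in the 6 siCYP1B1 libraries, each divided by the mean of the 3 vehicle libraries on a log axis (open symbols vehicle, filled symbols 16aOHE, 1 symbol shape per library). No vehicle and 16aOHE values of a gene overlap, which was a condition of selection. A4galt libraries lie near 2 and Scara5 libraries near 0.309.

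Of the receptors that bind estrogens, Esr1, the estrogen receptor alpha gene, was listed at 13.5, 13.9 and 13.8 CPM with vehicle and 15.8, 13.5 and 13.5 CPM with 16aOHE. The values overlapped (log2 difference 0.05, adjusted p = 0.85, exact permutation p = 0.8). Esr2 and Gper1, the estrogen receptor beta and the G protein-coupled estrogen receptor, stayed below 0.25 CPM in all 6 libraries and were not tested. Of 19 tested members of a list of estrogen receptors and classical target genes, 2 rose and 2 fell. This and every later list count stands beside 2.55% of all tested genes that rose and 2.87% that fell. The median log2 difference of the 19 was -0.02 against -0.01 over all tested genes. Stc2, the secreted glycoprotein stanniocalcin 2, rose from 10.7, 12.8 and 13.5 to 19.1, 18.7 and 19.3 CPM (0.59 ± 0.10, adjusted p = 0.00061). Nrip1, a corepressor recruited by estrogen receptors, rose by 0.33, Igfbp4, which sequesters insulin-like growth factors, fell by 0.23, and Ctsd, the lysosomal protease cathepsin D, fell by 0.13. Nrip1 lost its call without vehicle library 1 or 3 or 16aOHE library 2, and Ctsd without any 1 of 4 libraries (vehicle 2, vehicle 3, 16aOHE 1 or 16aOHE 2), and with several other settings. Greb1, a defining estrogen target, averaged 0.18 CPM.

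Among 11 tested estrogen-metabolizing enzymes Cyp1b1 alone changed. Its level went from 80.8, 82.2 and 81.3 CPM to 88.7, 90.2 and 91.5 CPM, without overlap, a log2 difference of 0.14 ± 0.03 (adjusted p = 0.016, exact permutation p = 0.1). The call was lost without vehicle library 1 or 3 or 16aOHE library 2 or 3 (adjusted p 0.052 to 0.058), and when the spread was estimated from these 2 groups alone (0.087). Of the aryl hydrocarbon receptor pathway, 2 of 10 tested members rose (Cyp1b1 and Serpinb2) and 1 fell (Aldh3a1). Serpinb2, plasminogen activator inhibitor 2, rose from 5.75, 5.97 and 6.91 to 11.3, 9.48 and 10.1 CPM (0.65, adjusted p = 0.0033). Aldh3a1, an aldehyde dehydrogenase, fell from 37.6, 39.9 and 44.2 to 31.3, 22.0 and 25.1 CPM (-0.63, adjusted p = 0.0032). The receptor itself, Ahr, was at 23.7, 22.5 and 19.7 against 25.4, 24.5 and 27.7 CPM (0.23, adjusted p = 0.092), and its target Cyp1a1 averaged 0.072 CPM.

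The promoter of Cyp1b1 is shown because the gene is the siRNA target and rose with both estrogens. The sequence is that of RefSeq on GRCm38.p6, 250 bases before to 50 after the start (chr17:79715012-79715311, minus strand), with a match to the xenobiotic response core GCGTG in capitals, here read on the opposite strand as CACGC.
Cyp1b1: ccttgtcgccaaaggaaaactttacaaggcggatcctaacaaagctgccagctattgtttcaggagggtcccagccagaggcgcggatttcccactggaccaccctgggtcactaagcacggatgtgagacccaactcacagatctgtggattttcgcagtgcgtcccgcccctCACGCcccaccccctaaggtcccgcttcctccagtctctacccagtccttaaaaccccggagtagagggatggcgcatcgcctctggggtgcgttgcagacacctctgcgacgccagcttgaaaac
That core, searched on both strands, was held by 51.3% of the 11842 promoters of tested genes, by 52.1% of 263 promoters of risers and by 44.6% of 354 promoters of fallers. The estrogen response element palindrome, GGTCA and TGACC spaced by 3 bases of any kind, occurred in no promoter of a tested gene, which says only that these letters are not in these windows. A match is a description of letters, not a site in use.

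Of 32 tested genes of transforming growth factor beta (TGF-beta) signalling and extracellular matrix 7 rose and 2 fell, with a median of 0.05. Thbs1, thrombospondin 1, which releases latent TGF-beta, was listed at 67.4, 79.4 and 65.8 CPM with vehicle and at 91.1, 94.6 and 95 CPM with 16aOHE (0.40 ± 0.06, adjusted p = 0.00048). Ctgf, a matricellular growth factor, rose from 82.1, 80.9 and 76.2 to 102, 112 and 99.8 CPM (0.39, adjusted p = 0.021). Neither gene's groups overlapped, although the call for Ctgf was lost without vehicle library 2 or 3 or 16aOHE library 2.

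Of the ligands and receptors, Tgfb2 rose by 0.25 and Tgfb3 fell by 0.13, while Tgfb1 was at -0.09 (adjusted p = 0.55). The accessory receptor Tgfbr3, betaglycan, rose from 79.0, 74.5 and 77.1 to 99.3, 95.5 and 95.8 CPM (0.33, adjusted p = 0.00036), with Tgfbr1 at -0.03 and Tgfbr2 at 0.05, neither past the threshold. Further risers were Cyr61 (0.25), a matricellular relative of Ctgf, and Fbn1 (0.29), the microfibril protein fibrillin 1, and the other faller was the collagen chain Col6a1 (-0.25). Tgfb2, Tgfb3, Cyr61, Fbn1 and Col6a1 are named beyond the 4 members the rule allows, to account for the list. Of these Tgfb2 kept its call without any 1 library, and the other 4 each lost it without vehicle library 2 and at least 1 more library. The count of risers was 4 without vehicle library 2 or 3 and 5 without 16aOHE library 2. In the related BMP pathway, 1 of 21 tested members changed, the extracellular regulator Bmper (0.21, a call lost without vehicle library 1 or 3 or 16aOHE library 2). Bmpr2, the receptor mutated in heritable pulmonary arterial hypertension, was at 0.23 (adjusted p = 0.12), and its target Id1 at 0.03.

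Of 15 tested markers of mesothelial and epithelial cells 7 fell and 1 rose, with a median of -0.24. Lrrn4, a mesothelial membrane protein, was listed at 87.3, 97.2 and 96.9 CPM with vehicle and at 69.4, 66.3 and 65.0 CPM with 16aOHE (-0.48 ± 0.05, adjusted p = 3.3e-06). Krt18, a simple-epithelial keratin, went from 4.80, 5.04 and 4.44 to 2.70, 3.25 and 2.07 CPM (-0.66, adjusted p = 0.0051). Krt14, a basal keratin, went from 13.3, 13.9 and 12.3 to 9.31, 8.82 and 9.87 CPM (-0.46, adjusted p = 0.029). The groups did not overlap in any of the 3.

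Cdh1, E-cadherin, fell by 0.61, and to account for the whole list Upk3b (-0.24), Upk1b (-0.14) and Cldn1 (-0.44) are named as further fallers and Bnc1, a transcription factor, as the riser (0.23). The most abundant member, Msln, did not pass the test (1403 against 1425 CPM, log2 0.02, adjusted p = 0.86), nor did Wt1 (0.06, adjusted p = 0.33) or Krt19 (-0.10, adjusted p = 0.34). The summed level of the list was 4655 to 4846 CPM with vehicle and 4355 to 4541 CPM with 16aOHE. The count of fallers was 3 without vehicle library 2 or 3 and 5 without any 1 of the 16aOHE libraries, and Krt14, Cdh1 and Cldn1 each lost their call without at least 4 of the 6 libraries in turn. Upk1b lost its call without vehicle library 2 or 3 or 16aOHE library 2, while Lrrn4, Krt18, Upk3b and Bnc1 kept theirs without any 1 library.

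Of 7 tested fibroblast markers 4 fell and none rose. Col3a1, a chain of fibrillar collagen, was listed at 2721, 2798 and 2669 CPM with vehicle and at 2147, 2182 and 2278 CPM with 16aOHE (-0.31 ± 0.03, adjusted p = 6.3e-06). Col1a2 fell by 0.21, the small proteoglycan decorin (Dcn) by 0.30 and the calcium-binding protein S100a4 by 0.37. Col1a1 was at -0.05 (adjusted p = 0.81 by limma) and fibronectin (Fn1) at 0.17 (adjusted p = 0.23). Of the 13 fibroblast markers with values 6 reached a mean of 10 CPM, while Lum, Postn and Pi16 averaged 0.049, 0.080 and 0.28 CPM. S100a4 lost its call without vehicle library 3 or 16aOHE library 2, and Col1a2 without vehicle library 2.

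Of 8 tested endothelial markers, 3 fell and none rose, at a median of -0.24 and a summed level of 263 to 272 CPM against 229 to 236 CPM. Mmrn2 was listed at 6.98, 7.70 and 6.64 CPM with vehicle and 4.19, 4.15 and 2.83 CPM with 16aOHE (-0.79 ± 0.14, adjusted p = 0.0012). Esam, a junction adhesion molecule, went from 21.8, 21 and 21.5 to 12.2, 16.8 and 15.4 CPM (-0.52, adjusted p = 0.00092), and Cd34 fell by 0.24, a call lost without any 1 of the 3 vehicle libraries or 16aOHE library 2. Acta2, smooth muscle actin, was the 1 of 9 smooth muscle and pericyte markers to change (-0.36, adjusted p = 0.021, lost without vehicle library 2 or 3 or 16aOHE library 1). None of 3 tested leukocyte markers changed. The part of cell composition in these values was not tested.

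In glycolysis and the hypoxia response 2 of 33 tested genes rose and 3 fell. Pfkfb3, the enzyme that makes the main activator of phosphofructokinase, rose from 59.2, 58.7 and 59.9 to 70.9, 70.5 and 73.9 CPM (0.27, adjusted p = 0.0003). Hk2, hexokinase 2, rose from 98.3, 93.2 and 91.4 to 113, 116 and 106 CPM (0.24, adjusted p = 0.00076). On the same list Egln3 (-0.44), Ndrg1 (-0.24) and Ddit4 (-0.15) fell, Ddit4 being named to complete the list. The calls for Ndrg1 and Ddit4 were lost without vehicle library 1 or 2 or 16aOHE library 1 or 2, that for Ddit4 also without vehicle library 3. Vegfa (-0.01) and Ldha (-0.11) did not pass the test. Slc2a1, the glucose transporter, was at 0.08 (adjusted p = 0.22).

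Lpl was the only one of 26 tested fatty acid genes to change, and its partner and inhibitor Angptl4 was at 13.6, 12.7 and 14.3 against 15.1, 13.9 and 14.0 CPM (0.08, adjusted p = 0.75). For cholesterol synthesis 3 of 24 fell and none rose at a median of -0.13. These were Idi1 (-0.22), Fdft1 (-0.20) and Hmgcs1 (-0.15), of the pathway from acetyl units to squalene, and none was called without vehicle library 3 or without 16aOHE library 2. The list's count was 1 without vehicle library 2 or 16aOHE library 1, and 5 without 16aOHE library 3. None of 23 oxidative phosphorylation genes changed.

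The ATF4 and unfolded protein response list held 3 risers of 36 and no faller, beside 2.55% and 2.87% of all tested genes. The risers were the endoplasmic reticulum chaperone partner Dnajb9 (0.24), the mannosidase-like degradation factor Edem1 (0.18) and Sdf2l1 (0.19). Sdf2l1 lost its call without vehicle library 1 or 2 or 16aOHE library 2 or 3, and Dnajb9 when the spread was estimated from these 2 groups alone (adjusted p 0.051). Chac1, a marker of ATF4 activity, was listed at 16.2, 13.8 and 17.5 against 15.4, 17.6 and 14.2 CPM and did not pass the test (-0.01, adjusted p = 0.98). Of 25 NRF2 oxidative stress targets 1 rose, G6pdx, which feeds the pentose phosphate pathway (227, 208 and 224 against 274, 246 and 263 CPM, 0.25, adjusted p = 0.00098). Another target, Nqo1, was at -0.14 (adjusted p = 0.18).

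Among inflammatory genes, Tnfaip3, a feedback inhibitor of NF-kB, rose from 36.8, 37.7 and 33.5 to 46.1, 46.0 and 49.5 CPM (0.38, adjusted p = 0.00078), and the adhesion molecule Vcam1 fell by 0.22, these being the 2 changes among 20 NF-kB and inflammatory genes. Vcam1 lost its call without vehicle library 2 or 3 or 16aOHE library 2. Of 37 interferon response genes 3 fell (the guanylate-binding proteins Gbp2 and Gbp3, each by 0.20, and the ubiquitin-like protease Usp18 by 0.17), and none was called without 16aOHE library 2, and 1 without any 1 of the vehicle libraries.

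Of 40 cell cycle and replication genes 5 fell and none rose: Hmgb2, Tk1, Mcm7, Rrm1 and Rrm2, between -0.12 and -0.30, of which Rrm2 completes the list and is lost without vehicle library 1 or 2 or 16aOHE library 2. Tk1, thymidine kinase 1, was listed at 86.0, 90.4 and 87.3 against 72.4, 73.2 and 72.1 CPM (-0.27, adjusted p = 0.0034). The count was 2 without any 1 of the vehicle libraries or without 16aOHE library 2, and 3 without 16aOHE library 3. Mki67, the proliferation antigen, was at 0.08 (adjusted p = 0.49), and none of 24 p53 targets changed.

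In the remaining lists, 1 of 20 immediate early genes rose (Fosl2, 0.21, lost without vehicle library 3) and 2 fell, Spry4 (-0.32) and Klf4 (-0.14). Both Spry4 and Klf4 lost their call without vehicle library 1 or 3 or 16aOHE library 2 or 3. Klf15 rose (0.48) and Fkbp5 fell (-0.12) among 22 clock and glucocorticoid-type genes, and both calls were lost when any 1 of at least 5 of the 6 libraries was left out. Among 18 angiopoietin, VEGF and stanniocalcin genes and their relatives Stc2 rose while Igfbp5, Angptl2 and Igfbp6 fell, Igfbp6 without a call when vehicle library 2 or 3 or 16aOHE library 2 was left out. Angptl2, a secreted inflammatory factor, was listed at 38.6, 36.1 and 38.2 CPM with vehicle and 26.3, 25.7 and 27.0 CPM with 16aOHE (-0.50 ± 0.05, adjusted p = 4.4e-06). The zinc importer Slc39a10 fell by 0.21 as the 1 change among 11 metallothionein and zinc genes, lost without vehicle library 2 or 3 or 16aOHE library 1. The plot of members called by gene list sets these counts beside the shares of all tested genes.

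**Figure D2:**
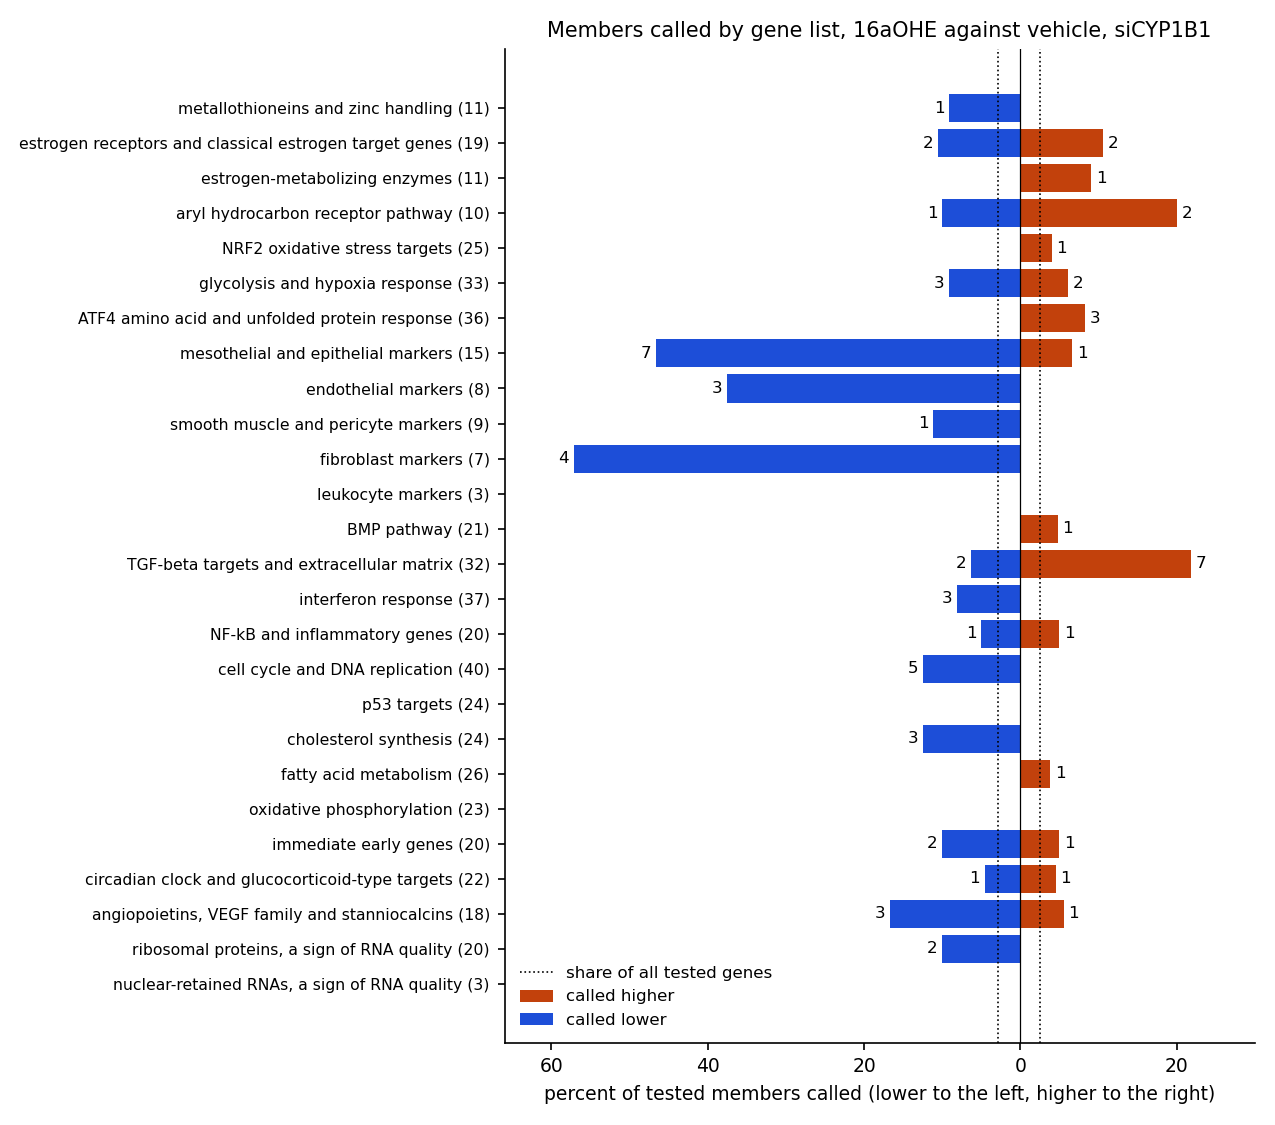
Percent of the tested members of each of 26 gene lists (number tested in parentheses) that were called higher (right) or lower (left) with 16aOHE, with the count at each bar and dotted lines at the shares over all tested genes, 2.55% and 2.87%. The longest bars to the left are those of fibroblast (4 of 7), mesothelial and epithelial (7 of 15) and endothelial markers (3 of 8), and the longest to the right is that of TGF-beta targets and matrix (7 of 32).

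The same estrogen was compared in scrambled cells, which share no library with the siCYP1B1 comparison. There 455 genes changed (3.86%), 209 higher (1.77%) and 246 lower (2.09%). Both siRNA backgrounds called 271 genes, 42.5% of the siCYP1B1 calls and 59.6% of the scrambled calls, and 270 of them moved the same way (136 higher, 134 lower). Across all tested genes the 2 sets of log2 differences had a Pearson r of 0.49. Of the 638 siCYP1B1 calls, 592 had the same sign in scrambled cells, and the same-sign share over all tested genes was not computed. Genes are not independent replicates, and these are descriptions.

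A4galt went from 8.34, 7.53 and 7.64 to 22.2, 25.2 and 21.2 CPM in scrambled cells, a log2 difference of 1.43 beside 0.99 in siCYP1B1 cells. Lpl went from 499, 513 and 482 to 878, 878 and 843 CPM (0.80 beside 0.69), and Pcdh10 from 27.3, 29.6 and 27.0 to 45.6, 52.3 and 49.9 CPM (0.79 beside 0.83). Scara5 went from 5.37, 3.94 and 4.44 to 2.19, 2.65 and 2.18 CPM (-0.74 beside -1.19). Stc2 rose by 1.05 in scrambled cells beside 0.59, and Cyp1b1 by 0.20 beside 0.14. In each of these 6 genes the change passed the test in both siRNA backgrounds.

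No gene passed the test of the difference between the 2 responses (0 of 11786 by limma, 0% called). At an unadjusted p under 0.05 there were 594, where a share of 0.05 of all tests would pass with no difference. The median 95% interval of that difference was 0.37 wide, beside a median change of 0.24 among the genes called in siCYP1B1 cells. For A4galt the difference was -0.44 (95% interval -0.66 to -0.22, adjusted p = 0.41), for Stc2 -0.46 (-0.74 to -0.18, adjusted p = 0.68) and for Lpl -0.10 (-0.21 to 0.00, adjusted p = 0.97). The lowest adjusted p was that of Psmb5, a proteasome subunit, at -0.27 in siCYP1B1 and 0.28 in scrambled cells (difference -0.55, adjusted p = 0.064). With the spread estimated from the 4 groups compared alone, 12 genes were called, among them Psmb5, Atp5g2, Atp5k, Lsm7, Ppia and 6 ribosomal protein genes. In all 12 the log2 response to 16aOHE, not the level, was lower in siCYP1B1 than in scrambled cells. With vehicle, Psmb5 averaged 20.5 CPM in siCYP1B1 and 14.6 CPM in scrambled cells, and Atp5g2 11.6 and 7.05 CPM. With 16aOHE the means were 16.85 and 17.98 CPM for Psmb5 and 6.74 and 9.99 CPM for Atp5g2. The 12 genes were chosen after their values were seen, and Ppia and the ribosomal protein genes have many near-identical copies.

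**Figure D3:**
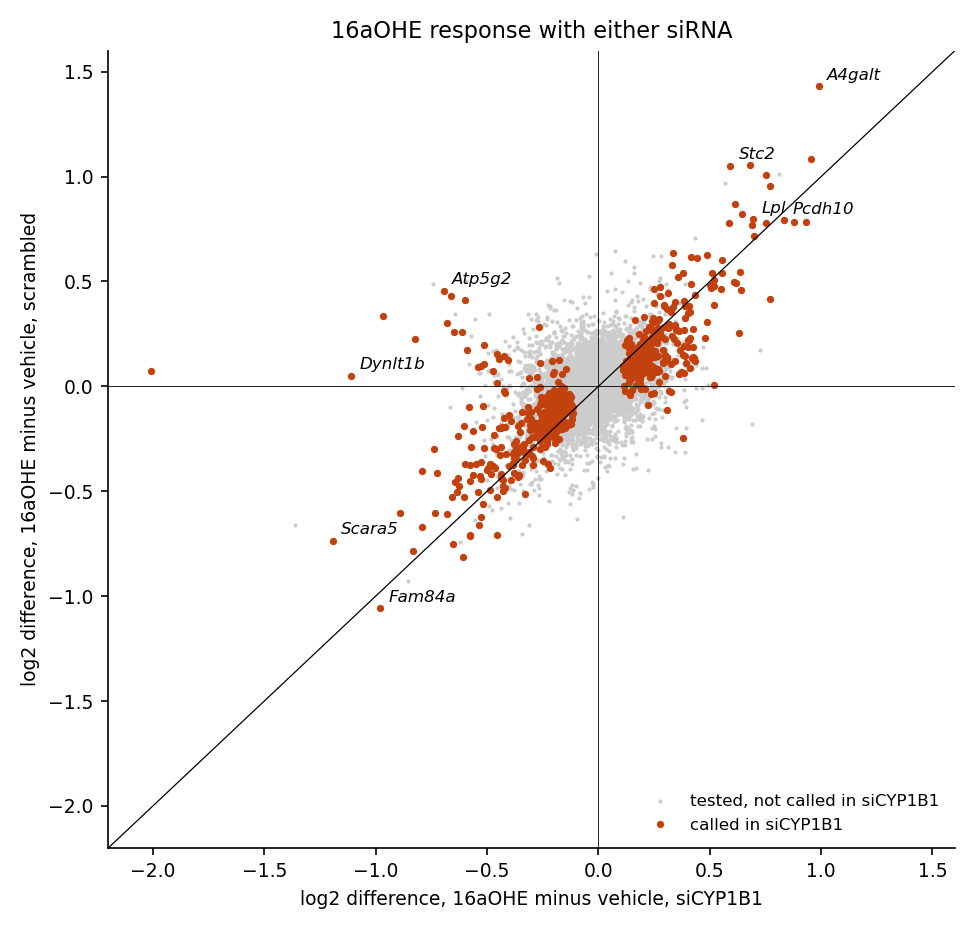
Log2 difference between 16aOHE and vehicle for each tested gene in siCYP1B1 cells (x axis) and in scrambled cells (y axis), with the 638 genes called in siCYP1B1 cells coloured and a line of equality. A4galt, Lpl and Pcdh10 lie at the upper right and Scara5 and Fam84a at the lower left, while Atp5g2 and Dynlt1b lie above 0 in scrambled cells.

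E2 at the same 1 uM for the same 24 hours gave the matched compound, and 1 pair of compounds was compared. Both estrogens were read against the same siCYP1B1 vehicle libraries, so that their differences from vehicle share that noise. E2 changed 3253 genes against vehicle (27.6%), 1966 higher (16.7%) and 1287 lower (10.9%), and 2170 differed between 16aOHE and E2 (18.4%), 783 higher (6.64%) and 1387 lower (11.8%) with 16aOHE. Both splits by direction depended on scaling. For E2 against vehicle 60.4% were higher on the deposited scale, 45.6% after median-of-ratios scaling, 50.8% after quantile normalization and 44.8% with the length trend removed. For 16aOHE against E2 36.1% of the genes were higher with 16aOHE on the deposited scale, 59.4% after median-of-ratios scaling and 52.0% after quantile normalization. The 17 genes named below as differing between the estrogens kept their direction and their call under both scalings.

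Some genes that moved with E2 did not move with 16aOHE. Mt2, a metallothionein that binds zinc and copper (chr8:94172618-94173567, plus strand), was listed at 12, 13.8 and 12.8 CPM with vehicle, 12.6, 10.3 and 11.3 CPM with 16aOHE and 45.9, 44.6 and 43.4 CPM with E2. The vehicle and 16aOHE values overlapped (-0.16, adjusted p = 0.27), and 16aOHE lay below E2 by 1.88 on the log2 scale (95% interval of the difference -2.05 to -1.72, adjusted p = 1.7e-12). Mt1 (chr8:94179089-94180327, plus strand) was listed at 91.2, 88.3 and 96.7 CPM with vehicle, 95.5, 76.4 and 81.8 CPM with 16aOHE and 197, 193 and 199 CPM with E2 (16aOHE minus E2 -1.21, interval -1.36 to -1.06, adjusted p = 4.5e-10).

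The promoters of both metallothionein genes are shown because Mt2 and Mt1 lay furthest below E2 among the named genes, with matches to the metal response element core (TGCGCNC or TGCACNC, on either strand) in capitals. The sequences are those of RefSeq on GRCm38.p6, chr8:94178839-94179138 for Mt1 and chr8:94172368-94172667 for Mt2, both on the plus strand.
Mt1: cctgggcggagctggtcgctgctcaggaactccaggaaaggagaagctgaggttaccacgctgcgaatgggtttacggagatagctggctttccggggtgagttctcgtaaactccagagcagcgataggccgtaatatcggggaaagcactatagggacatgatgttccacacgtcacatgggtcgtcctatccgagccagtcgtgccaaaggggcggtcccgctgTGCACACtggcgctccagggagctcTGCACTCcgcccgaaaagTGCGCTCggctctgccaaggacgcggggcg
Mt2: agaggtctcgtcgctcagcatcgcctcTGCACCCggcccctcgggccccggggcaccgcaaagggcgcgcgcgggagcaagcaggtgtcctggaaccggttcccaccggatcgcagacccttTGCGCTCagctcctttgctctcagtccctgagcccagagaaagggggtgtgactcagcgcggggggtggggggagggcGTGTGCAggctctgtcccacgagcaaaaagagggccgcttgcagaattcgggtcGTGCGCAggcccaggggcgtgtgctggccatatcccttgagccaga
The Mt1 window held 3 matches and the Mt2 window 4. At least 1 match was held by 35.9% of promoters of tested genes, and how many of them held 3 or 4 was not counted.

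Fgfr1, a fibroblast growth factor receptor, Aldh1l2, a mitochondrial folate enzyme, and Chac1 followed the same order. Fgfr1 was listed at 9.42 to 11.6 CPM with vehicle, 8.64 to 12.3 CPM with 16aOHE and 21 to 21.5 CPM with E2 (16aOHE minus E2 -1.02, interval -1.26 to -0.79). Aldh1l2 differed by -0.85 (interval -1.02 to -0.68) and Chac1 by -0.80 (interval -0.98 to -0.63), all 3 at an adjusted p of at most 2.1e-06. Dynlt1b was lower than with E2 by 0.81, a call lost without E2 library 1 or 16aOHE library 2 or 3.

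In the other direction, Lpl stood at 441, 451 and 474 CPM with E2, overlapping vehicle (0.05, adjusted p = 0.38), and 16aOHE exceeded E2 by 0.65 (interval 0.57 to 0.72, adjusted p = 1.6e-10). Pcdh10 was at 29.5, 29.7 and 29.1 CPM with E2 and differed by 0.59 (interval 0.46 to 0.72). Edn2, the vasoconstrictor endothelin 2, was listed at 6.18, 6.81 and 7.83 CPM with vehicle, 9.88, 9.20 and 8.80 CPM with 16aOHE and 3.72, 3.56 and 3.94 CPM with E2, a difference of 1.12 (interval 0.92 to 1.32, adjusted p = 8.3e-08). Its rise over vehicle with 16aOHE (0.38) lost its call without vehicle library 1 or 2 or 16aOHE library 1 or 2.

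Several genes fell with E2 and fell less, or did not pass the test, with 16aOHE. Pappa, a protease that frees insulin-like growth factor from its binding proteins, had the largest difference between the estrogens in this direction, at 19.8 to 22.2 CPM with vehicle, 17.3 to 20.6 CPM with 16aOHE and 6.21 to 7.61 CPM with E2 (1.27, interval 1.04 to 1.49, adjusted p = 7.8e-08). Angptl4 (1.02), Krt80 (0.96) and Adcyap1r1 (0.96), the receptor for the neuropeptide PACAP, followed, and Krt18 differed by 0.98 (interval 0.70 to 1.26). The fall of Adcyap1r1 with 16aOHE (-0.34) lost its call without vehicle library 1 or 2 or 16aOHE library 2 or 3. Lrrn4 was at 34.7, 34.2 and 36.0 CPM with E2 and Col3a1 at 1393, 1446 and 1464 CPM, below the 16aOHE libraries in each case. Cyp1b1 was higher with E2 (100, 104 and 104 CPM), and 16aOHE lay below it by 0.18 (interval -0.26 to -0.11, adjusted p = 0.00076).

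For other strongly changed genes no difference between the estrogens was detected, which does not show that they act alike. A4galt was at 21.7, 19.3 and 21.5 CPM with E2, and 16aOHE minus E2 was 0.11 (interval -0.05 to 0.26, adjusted p = 0.35). For Dhrs3 the difference was -0.10 (interval -0.23 to 0.03), for Tmem86a -0.17 (interval -0.39 to 0.05), for Scara5 -0.09 (interval -0.40 to 0.21) and for Angptl2 0.02 (interval -0.08 to 0.13).

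**Figure D4:**
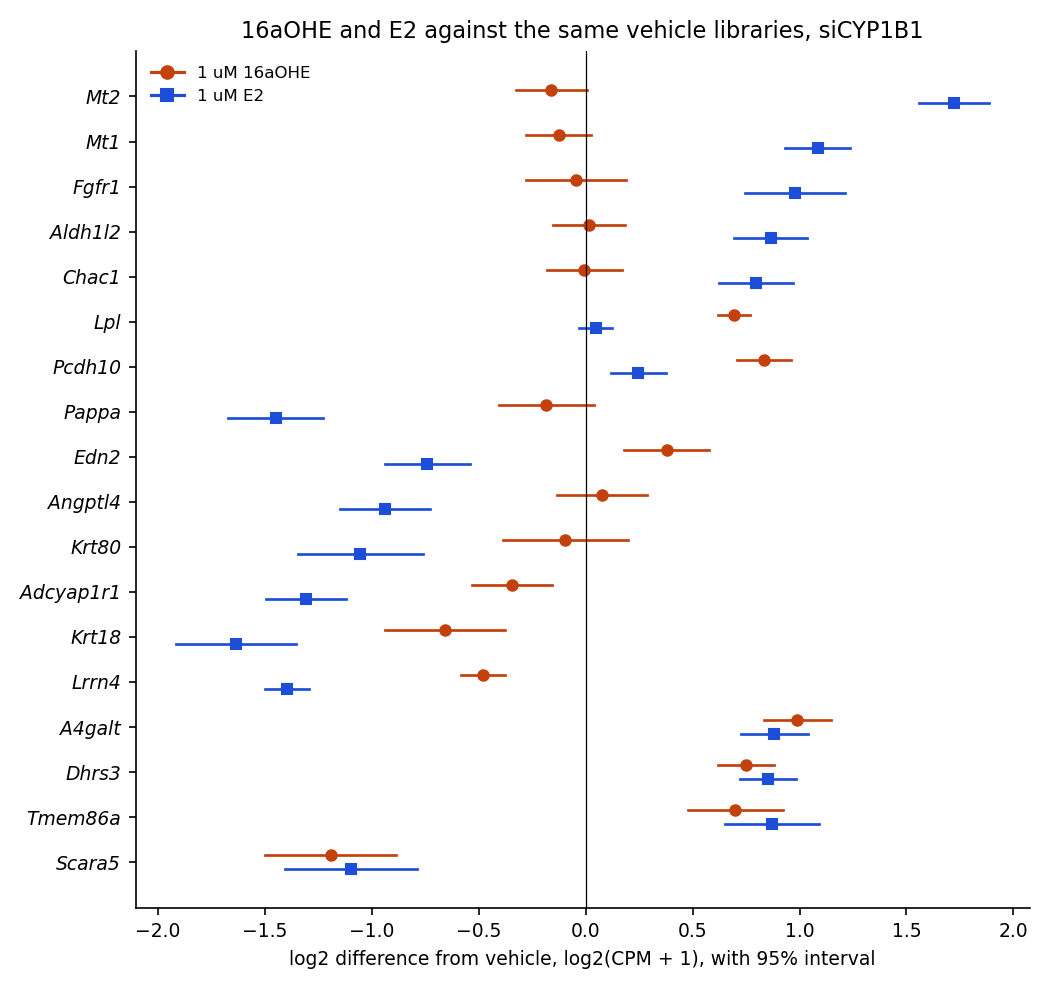
Log2 difference from the same 3 siCYP1B1 vehicle libraries, with 95% intervals, for 1 uM 16aOHE (circles) and 1 uM E2 (squares) in selected genes. Mt2 lies at -0.16 with 16aOHE and 1.72 with E2, Lpl at 0.69 and 0.05, and A4galt at 0.99 and 0.88.

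Gene length moved with the response. Among 11730 tested genes with an annotated exonic length, the median length was 4572.5 bases, against 6757.5 for risers and 3708 for fallers. With the genes split into 4 equal length classes, the shortest class held 44 risers and 131 fallers, the longest 143 and 53. The median deviation of the longest minus the shortest class was 0.018, -0.043 and -0.070 on the log2 scale in the vehicle libraries and 0.041, 0.057 and -0.011 in the 16aOHE libraries, so that the groups overlapped. Of 61 tested ribosomal protein genes, which are short, 11 fell and none rose (2.87% of all tested genes fell), at a median of -0.18, while in scrambled cells none changed at a median of -0.01. The 11 became 3 without vehicle library 1, 4 without vehicle library 2 or 16aOHE library 1 or 2, and 6 without vehicle library 3. Ribosomal protein genes have many near-identical copies among which reads can be split, so these values are uncertain. Some fallers were low with vehicle (Rps16 at 4.61, Rpl19 at 5.31 and Rps27a at 3.61 CPM), while the faller Rpl15 was at 189 CPM. Rpl8 and Rpl4, at 1202 and 1083 CPM with vehicle, did not pass the test. Malat1, a nuclear-retained transcript that can track RNA quality, averaged 293 CPM with vehicle and 510 CPM with 16aOHE (0.72, adjusted p = 0.058). The other nuclear-retained transcripts tested were Neat1 at -0.26 (adjusted p = 0.71) and Kcnq1ot1 at 0.44 (adjusted p = 0.19). Over the 5 listed transcripts with values, the summed level was 342 to 469 CPM with vehicle and 488 to 816 CPM with 16aOHE. The median log2 difference of the 3 tested was 0.44, against 0.0007 in scrambled cells. None was called in either siRNA background, and 1 was called higher in siCYP1B1 cells with the length trend removed. With the length trend removed from each library, a step added after the data were seen, 611 genes changed (290 higher, 321 lower), 526 of them among the 638, and the medians were 4894.5 bases for risers and 4416 for fallers. The part of RNA quality or library preparation in the length relation was not tested.

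**Figure D5:**
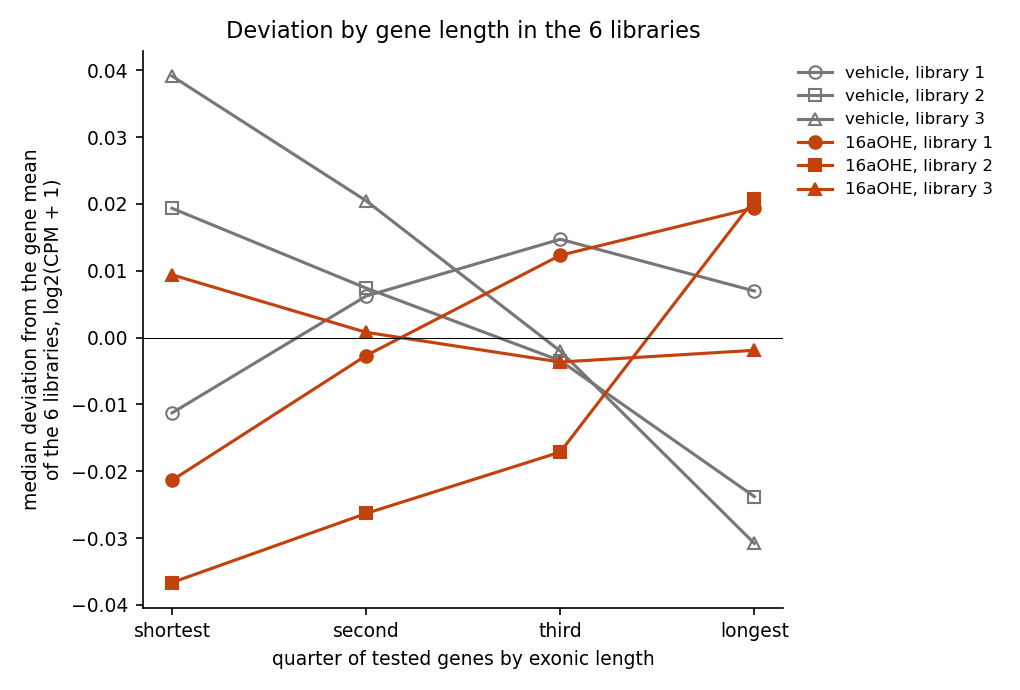
Median deviation of log2(CPM + 1) from the gene mean over the 6 siCYP1B1 libraries, in 4 equal classes of tested genes ordered by exonic length (open symbols vehicle, filled symbols 16aOHE, 1 line per library). Between the shortest and longest class 16aOHE library 2 climbs by 0.057 and vehicle library 3 descends by 0.070.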

How the data were processed

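RNA sequencing of total RNA was described for 18 libraries. The authors deposited 1 table of 15288 genes in CPM, to which an offset of 1e-04 had been added, and per the submitters' processing notes the work used TopHat2, Partek and mm10, with versions, annotation and filters not given in the sources used here. Low values fell on whole-read steps for 93.3% to 94.0% of values (tolerance 0.1 reads), and since the rest were fractional no count test was run. Values were tested as log2(CPM + 1) with limma 3.58.1 in R 4.3.3 (lmFit, 1 coefficient per group over all 18 libraries, eBayes with trend), with Benjamini-Hochberg adjustment over 11786 genes within each of 5 contrasts (16aOHE against vehicle in each siRNA, the difference of these, and 16aOHE against E2 and E2 against vehicle in siCYP1B1) and a threshold of 0.05. Log2 differences understate the change of genes near 1 CPM. The pipeline was tested on simulated data.

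The members and the 26 gene lists were chosen with earlier results of these data known. Named genes were Cyp1b1, the estrogen receptors and Ahr, the 12 largest non-overlapping changes in each direction, up to 4 called members per list, the 6 largest differences from E2 in each direction, and members needed to account for a list; predicted genes, pseudogenes and small RNAs were left out, and a few genes that the rule would name are not reported here. Positions are those of the deposited table, 1-based, with the stop reduced by 1, which equalled the RefSeq GRCm38.p6 end for 56.7% of 14902 symbols against 4.13% for the stop as listed. Exonic lengths came from GENCODE M21, and promoters from RefSeq, matched by symbol for 9287 of the tested genes. Alternatives were the pseudocount, the filter, the scaling, the trend, the groups in the fit, each library left out, and gene length.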

Additional observations from a re-analysis of the deposited data

How the results depend on the processing

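The alternatives were pseudocounts of 0.1 and 5 CPM, no filter on low values, a mean of at least 5 CPM or of at least 1 CPM over all 18 libraries, median-of-ratios and quantile scaling, no trend in eBayes, only the compared groups in the fit, each library left out, and, added after seeing the data, removal of the gene length trend. The 638 genes that changed with 16aOHE in siCYP1B1 cells became 364 with only the compared groups in the fit, and 306 to 754 with 1 library left out. The difference between the siRNA backgrounds was called for 0 genes, for 1 with a mean of at least 5 CPM, 1 without a trend, 12 with only the compared groups, and 0 to 1 with 1 library left out. In scrambled cells 455 became 248 to 306 with 1 library left out. For 16aOHE against E2, 2170 became 1449 to 2223 with 1 library left out, and for E2 against vehicle 3253 became 2526 to 2675. Other counts of changed genes stayed within 1.5 times, and no named gene reversed. Of 79 named genes that passed the test, 43 kept their call in every setting that tested them. Genes below a mean of 5 CPM had no result under that filter. Among 101 values of named genes the call was lost for 30 without 16aOHE library 2, 14 without library 1 and 12 without library 3. It was lost for 20 without a trend, 17 with only the compared groups and 7 without a filter. Median-of-ratios scaling and removal of the length trend lost 5 each. Among the 89 values that rest on the vehicle libraries, 27 were lost without vehicle library 3, 23 without vehicle library 2 and 21 without vehicle library 1. No paired analysis was possible because the labels carry no replicate numbers. With 3 libraries a group and 14.1 to 25.2 reads per CPM, changes of genes near 1 CPM rest on few reads.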

Other observations

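Matrix metalloproteinases and retinoid genes were looked at as families after Mmp3 and Dhrs3 were seen among the largest rises, so that the lists give a description. Of 12 tested matrix metalloproteinases 3 rose with 16aOHE in siCYP1B1 cells and none fell, beside 2.55% and 2.87% of all tested genes: Mmp3, Mmp13 (collagenase 3, 5.37 to 8.73 CPM in the mean, log2 0.61, adjusted p = 0.015) and Mmp10 (stromelysin 2, 1.05 to 2.01 CPM, log2 0.55, adjusted p = 0.037). Mmp14, the most abundant, was at 384 and 383 CPM (-0.01, adjusted p = 0.96), and Mmp2 at -0.09 (adjusted p = 0.55). In scrambled cells Mmp3 (0.77) and Mmp10 (0.60) rose, and Mmp13 was at 0.50 (adjusted p = 0.057). In siCYP1B1 cells Mmp3 kept its call without any 1 library, Mmp13 lost it without vehicle library 2 or 16aOHE library 2, and Mmp10 without any 1 of the 6.

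Of 12 tested genes of retinoid handling and retinoid receptors 3 rose and 2 fell, beside the same shares of all tested genes. Beside Dhrs3, the retinoic acid receptor gene Rarb rose from 27.8 ± 1.2 to 40.2 ± 0.75 CPM (SD, n = 3; log2 0.52, adjusted p = 2.9e-05 by limma), and Tgm2, a transglutaminase known to respond to retinoic acid, rose by 0.25. Aldh1a1, which oxidises retinal to retinoic acid, fell from 1132 to 999 CPM (-0.18, adjusted p = 0.0068), and Rxra, the common receptor partner, fell by 0.23. Rarb (0.48) and Dhrs3 (0.78) also rose in scrambled cells, and Rara and Rarg, the other retinoic acid receptors, did not pass the test in siCYP1B1 cells (-0.06 and 0.02). Dhrs3, Rarb and Rxra kept their calls without any 1 library, Tgm2 lost its call without vehicle library 1 or 3 or 16aOHE library 3, and Aldh1a1 without vehicle library 3 or after quantile normalization.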
